A study of Mus musculus with 8 samples.

Results

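The genes described here are 46 markers of monocytes and tissue macrophages, chosen by name from 22180 genes measured in mouse pancreas. They mark the mononuclear phagocytes, the white blood cells that clear dying cells and debris. Each member had 1 row on the array, and all 46 were measured. Pancreas of C57 BL6 mice was taken 6 days after tamoxifen, injected into the abdomen at 3 mg per 40 g of body weight, and 100 ng of total RNA was put on a whole-transcript array. Tamoxifen was given in both genotypes: control mice with intact Lmna (LmnaWT, called WT, n = 4) and Lmna knockout mice (LmnaKO, called KO, n = 4), each with 3 males and 1 female (replicate 4). Lmna encodes lamin A/C, a filament protein on the inner face of the nuclear envelope, and the series title places its loss in acinar cells, which make the digestive enzymes. The sources used here do not give the promoter that drives the deletion, the alleles carried by the controls or the age of the mice. They also do not say whether arrays of 1 genotype come from separate animals or litters, so a p-value here reflects no more than the scatter among the 8 samples.

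Monocytes are made in the bone marrow, circulate in blood and leave it through the chemokine receptor CCR2, after which they can become macrophages. Resident macrophages settle in organs early in life and renew themselves there, and they are often told from newcomers by receptor genes such as Cd163, Timd4, Folr2 and Lyve1. Both kinds express the growth factor receptor CSF1R and depend on the transcription factor PU.1, encoded by Spi1. In the pancreas they lie between the acini and around islets, and monocytes enter when acinar cells are injured. In whole tissue, more cells of a type and more RNA per cell cannot be told apart.

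The markers were higher in KO pancreas. Of the 46 members, 19 rose (limma adjusted p under 0.05 over all genes) and 0 fell, while 14.6% of all genes tested rose and 6.99% fell. At an unadjusted p under 0.05, 37 members were higher and 0 lower. The median difference was 1.27 log2 units over the members and -0.06 over all genes, and 45 of 46 members had a positive difference, against 9928 of 22180 genes. Inflammatory monocyte markers had a median difference of 1.66 and resident macrophage markers of 1.03. WT and KO arrays carry the same replicate numbers, 1 to 4, and over all genes arrays of 1 number deviated together, so a fit with the number as a block is given too. Over the 46 members alone the same-numbered correlations were 0.28, 0.32, 0.25 and 0.13, and those of WT 3 with KO 1 (0.31) and of WT 2 with KO 4 (0.27) were as large. With the block, 39 members rose (16.7% of all genes) and 0 fell (6.08% of all genes), and all 19 calls of the unblocked fit were among them.

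**Figure D1:**
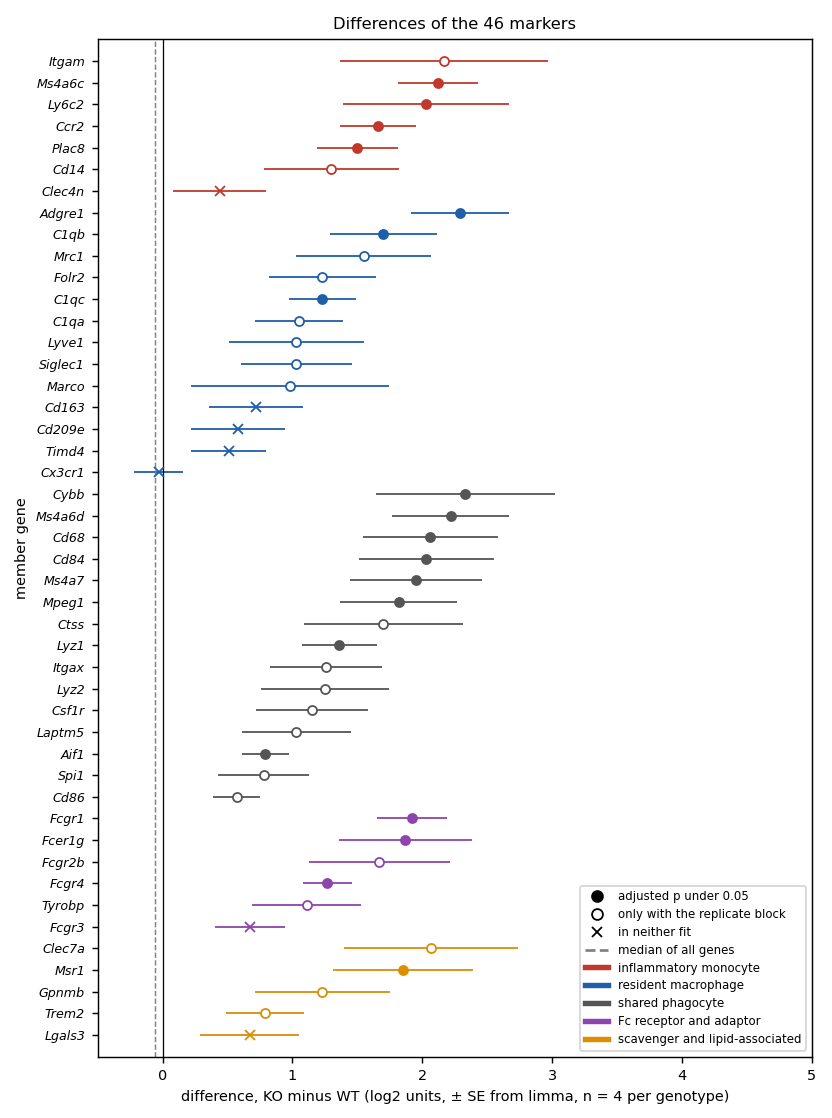
Difference of each of the 46 markers, KO minus WT, in log2 units with the limma standard error (n = 4 per genotype), coloured by class and with the median of all genes as a dashed line. Filled points passed an adjusted p of 0.05, open ones passed with the replicate block alone and crosses in neither fit; Cx3cr1 lies at -0.03 and the other 45 lie above 0.

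Levels set how these counts read. Values over all genes were more dispersed in KO, where each array's interquartile range was 2.88 to 3.03 log2 units, than in WT, where it was 2.11 to 2.48. Genes of middle level were called higher often: 36.6% of all genes with a mean of 4 to 5 and 39.7% of those with a mean of 5 to 6. Of the members in these ranges, 5 of 15 and 1 of 9 rose, so their shares are no larger than those of other genes at that level. Of the members at a level of 2 to 3, 4 of 6 rose against 5.07% of all genes there, and at 3 to 4, 6 of 9 rose against 22.9%. Of those at 6 to 8, 3 of 4 rose against 33.1%. With the block, 12 of 15 members at 4 to 5 rose against 41.4% of all genes there, and 9 of 9 at 5 to 6 against 45.3%. The median difference of the members exceeded that of all genes in each of the 7 level ranges, for example 1.23 against 0.45 at a level of 4 to 5.

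**Figure D2:**
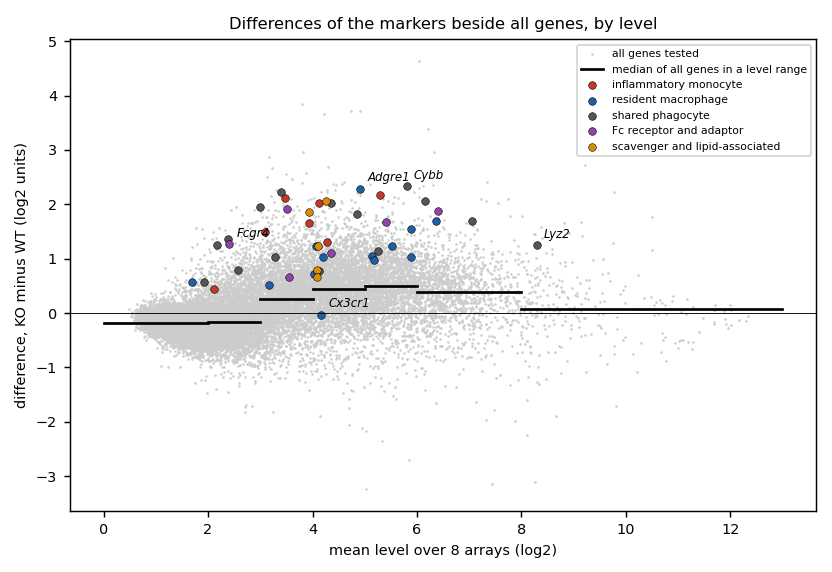
Difference, KO minus WT, against the mean level over 8 arrays (both log2) for all genes tested (grey) and for the 46 markers, coloured by class. Black bars give the median of all genes in each level range, which runs from -0.19 under a level of 2 to 0.50 at 5 to 6; every marker but Cx3cr1 lies above its bar.

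A second quantile normalization, which removes the wider spread of the KO arrays, lowered the number of members that rose to 12, while 5.54% of all genes rose. The median member difference was then 1.08. Of the 19 calls, 8 were lost both there and after cyclic loess, those of Ly6c2, C1qb, Cd68, Mpeg1, Cd84, Cybb, Fcer1g and Msr1. With that normalization and the replicate block together, 31 members rose, against 7.34% of all genes. With cyclic loess 12 members rose as well, against 6.86% of all genes.

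The inflammatory monocyte class holds 7 genes, of which 4 rose: Ms4a6c, Ccr2, Plac8 and Ly6c2. The median level of this class (3.93) lies in the range of 3 to 4. There 22.9% of all genes rose, and 26.7% with the block. Ms4a6c, a four-pass membrane protein of the MS4A family found on monocytes, read 2.34, 2.41, 1.97 and 2.95 across the WT arrays, in order of replicate number as throughout. The KO arrays gave 3.79, 4.63, 4.37 and 5.35, so every KO array lay above every WT array. Its difference was 2.12 ± 0.31 (log2, ± SE, n = 4 per genotype, limma adjusted p = 0.00331). Its WT mean of 2.42 lies near the median level of all genes in the WT arrays (2.46 to 2.66), and whether it is above background is unknown, so no fold is given. Ccr2, the receptor through which monocytes follow CCL2 out of the marrow, read 2.84, 3.78, 2.74 and 3.02 in WT and 4.08, 5.07, 4.61 and 5.27 in KO. Its lowest KO array still lay above its highest WT array, and the rise was 1.66 ± 0.29 (limma adjusted p = 0.00617). Plac8, a small cysteine-rich protein abundant in Ly6C-high monocytes, read 2.00 to 2.58 in WT and 3.15, 4.38, 3.33 and 4.48 in KO. It rose by 1.50 ± 0.31 (limma adjusted p = 0.0107), again with no overlap between genotypes.

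Ly6c2, which encodes the surface antigen that defines inflammatory monocytes, was less even. Its WT values were 1.99, 3.27, 2.33 and 4.82, and its KO values 5.18, 5.82, 3.71 and 5.82. WT 4 lay above KO 3, so the genotypes overlapped. The rise was 2.03 ± 0.64 (limma adjusted p = 0.0474), and the call was lost without WT 1 (1.66), WT 2 (2.09), WT 3 (1.77), KO 1 (2.01), KO 2 (1.80) or KO 4 (1.80). It was also lost after quantile normalization (1.80, limma adjusted p = 0.113), after cyclic loess (1.73, limma adjusted p = 0.114), with trend and robust eBayes (limma adjusted p = 0.0678) and with array weights (1.96, limma adjusted p = 0.0525). With the block it passed (adjusted p = 0.00658). Ly6c2 has a close copy, Ly6c1, which endothelial cells express, and transcripts of the pair could share probes, so its value is uncertain.

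Of the other 3 monocyte genes, Itgam and Cd14 passed with the block alone. Itgam, the CD11b chain of complement receptor 3 that neutrophils carry too, ran from 3.05 to 6.13 in WT and from 4.56 to 7.78 in KO. Its difference was 2.17 ± 0.80 (limma adjusted p = 0.0765, with the block 0.00269), and it was positive within each replicate number (1.52, 1.65, 2.34 and 3.18). Cd14, the lipopolysaccharide co-receptor, differed by 1.30 ± 0.52 (limma adjusted p = 0.0961, with the block 0.0137). Clec4n, the fungal lectin Dectin-2, differed by 0.44 ± 0.36 and passed in neither fit (limma adjusted p = 0.373, with the block 0.185).

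The promoters of the members were searched for a PU.1 site. PU.1 binds ETS sites whose core reads GAGGAA, and this string was searched on both strands of the 300 bases around each RefSeq transcript start (250 before it and 50 from it on, build GRCm38.p6). Promoter sequence was matched for 34 of the 46 members, and 19 of the 34 (55.9%) held the core in at least 1 window while 15 did not, against 5135 of 16990 genes of the array (30.2%). The 120 bases before the start are printed for 5 members that rose and hold the core there, and for Ccr2, which rose and does not hold it. The choice of these is not a share: Ly6c2 rose and holds the core there too. Like Ccr2, C1qc, Cd68, Cd84, Cybb, Fcer1g, Lyz1, Mpeg1, Ms4a6c and Ms4a7 rose and do not hold it in that stretch. The other start of Plac8 does not hold it either. Capitals mark the core, which reads TTCCTC where it lies on the opposite strand.
Fcgr4, chr1:171018806-171018925, plus strand: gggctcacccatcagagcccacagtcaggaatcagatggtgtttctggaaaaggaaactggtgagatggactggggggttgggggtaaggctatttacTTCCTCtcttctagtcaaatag
Fcgr1, chr3:96293970-96294089, minus strand: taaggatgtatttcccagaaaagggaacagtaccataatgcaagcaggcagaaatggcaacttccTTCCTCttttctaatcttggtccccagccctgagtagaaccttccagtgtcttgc
Plac8, chr5:100572206-100572325, minus strand: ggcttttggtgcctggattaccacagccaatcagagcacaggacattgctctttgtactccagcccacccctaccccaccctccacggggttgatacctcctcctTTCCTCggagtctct
C1qb, chr4:136886201-136886320, minus strand: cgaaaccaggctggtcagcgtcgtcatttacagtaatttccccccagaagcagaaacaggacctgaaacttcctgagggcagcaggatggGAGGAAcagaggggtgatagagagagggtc
Aif1, chr17:35176053-35176172, minus strand: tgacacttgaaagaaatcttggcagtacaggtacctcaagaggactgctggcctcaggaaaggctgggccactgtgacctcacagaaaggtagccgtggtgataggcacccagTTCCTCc
Ccr2, chr9:124102063-124102182, plus strand: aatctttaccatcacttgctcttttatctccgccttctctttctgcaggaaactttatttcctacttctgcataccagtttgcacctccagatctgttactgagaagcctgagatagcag
The core begins 22 bases before the start in Fcgr4, 55 in Fcgr1, 15 in Plac8, 30 in C1qb and 7 in Aif1. Each is 1 of the RefSeq starts of its gene, and a match is a description of the sequence, since binding was not measured.

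Of the 13 resident macrophage markers, 3 rose: Adgre1, C1qb and C1qc. This share lies below the 36.6% of all genes at a level of 4 to 5, the range that holds the median level of this class (4.91). With the block 9 of the 13 rose, a share above the 41.4% of all genes at that level. Adgre1, which encodes the adhesion receptor EMR1 used to stain mouse macrophages, read 2.92, 4.64, 3.61 and 3.89 in WT. Its KO values were 5.15, 6.50, 6.10 and 6.49. All KO arrays lay above all WT arrays, and the rise was 2.29 ± 0.38 (4.9-fold, limma adjusted p = 0.00504). Monocytes gain it too as they mature. C1qb, a chain of complement C1q made largely by macrophages, read 4.37, 6.39, 5.42 and 5.85 in WT and 6.40, 7.38, 7.55 and 7.49 in KO, where KO 1 barely cleared WT 2. It rose by 1.70 ± 0.41 (limma adjusted p = 0.0185), losing the call without KO 3 (1.59) or KO 4 (1.61), after quantile normalization (1.33, limma adjusted p = 0.0943) and after cyclic loess (1.30, limma adjusted p = 0.105). C1qc, the partner chain, read 3.27, 3.72, 3.57 and 3.27 in WT and 3.85, 5.18, 4.91 and 4.82 in KO, a rise of 1.23 ± 0.26 (limma adjusted p = 0.0123). The remaining chain, C1qa, differed by 1.05 ± 0.34 (limma adjusted p = 0.0509, with the block 0.00574).

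The scavenger receptors and lectins of long-lived macrophages did not pass without the block. Mrc1, the mannose receptor CD206, read 3.71, 6.11, 5.44 and 5.16 in WT and 5.45, 6.99, 6.84 and 7.33 in KO. The difference was 1.55 ± 0.52 (limma adjusted p = 0.059, with the block 0.00352), and the genotypes overlapped because WT 2 lay above KO 1. Folr2, the folate receptor of resident macrophages, read 4.09, 5.60, 5.65 and 4.30 in WT and 5.29, 6.49, 6.26 and 6.51 in KO (difference 1.23 ± 0.41, limma adjusted p = 0.0559, with the block 0.0127). Lyve1, a hyaluronan receptor shared with lymphatic endothelium, read 4.0, 6.29, 5.91 and 5.33 in WT and 5.64, 7.17, 5.71 and 7.11 in KO. It differed by 1.03 ± 0.52 (limma adjusted p = 0.169, with the block 0.0458), and number 3 had a difference of -0.20. Prox1, the defining factor of lymphatic endothelium, did not pass (0.38 ± 0.31, limma adjusted p = 0.379). Siglec1, the sialic acid receptor CD169, differed by 1.03 ± 0.43 (limma adjusted p = 0.11, with the block 0.00558).

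Several resident markers passed in neither fit. Timd4, the phosphatidylserine receptor TIM-4 of long-lived residents, read 2.43, 2.71, 3.07 and 3.47 in WT and 2.95, 3.77, 3.02 and 3.98 in KO (0.51 ± 0.29, limma adjusted p = 0.207, with the block 0.0822). Cd163, the haemoglobin scavenger receptor, read 3.31, 3.59, 4.36 and 3.41 in WT and 3.34, 4.87, 4.35 and 5.0 in KO (0.72 ± 0.36, limma adjusted p = 0.164, with the block 0.102). In both genes KO 2 and KO 4 were the high arrays and KO 1 and KO 3 lay among the WT values. Cd209e, a lectin of the DC-SIGN family, differed by 0.58 ± 0.36, and KO 4 (3.27) stood apart from the other KO arrays (1.42 to 1.64).

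Cx3cr1, the fractalkine receptor of patrolling monocytes and many resident macrophages, was singled out after its values were seen, as the member without a positive difference. It read 3.92, 4.67, 4.07 and 4.05 in WT and 3.88, 4.27, 4.43 and 4.0 in KO. The groups lay on top of each other, with a difference of -0.03 ± 0.19 (limma adjusted p = 0.915), and its sign turned after median centring (0.11), with array weights (0.01) and without WT 2 (0.13), KO 1 (0.06) or KO 4 (0.02). It was -0.38 after quantile normalization (limma adjusted p = 0.307) and -0.33 after cyclic loess (limma adjusted p = 0.356). Its ligand Cx3cl1 fell by 0.66 on the log2 scale (SE 0.19, limma adjusted p = 0.0357, with the block 0.0552).

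Marco, a scavenger receptor of lung and marginal-zone macrophages, had the largest SD of this class among KO arrays (1.67). It read 3.88, 5.02, 3.92 and 5.95 in WT and 4.64, 7.03, 3.87 and 7.15 in KO, and the difference of 0.98 ± 0.76 did not pass (limma adjusted p = 0.35, with the block 0.0468). Whether the monocyte and resident classes differ in their change was not tested. With the block, 6 of 7 monocyte markers rose, against 26.7% of all genes at a level of 3 to 4. Of the resident markers 9 of 13 rose with it, against 41.4% of all genes at a level of 4 to 5. Without KO 1, 8 resident markers rose, while 12.2% of all genes did.

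**Figure D3:**
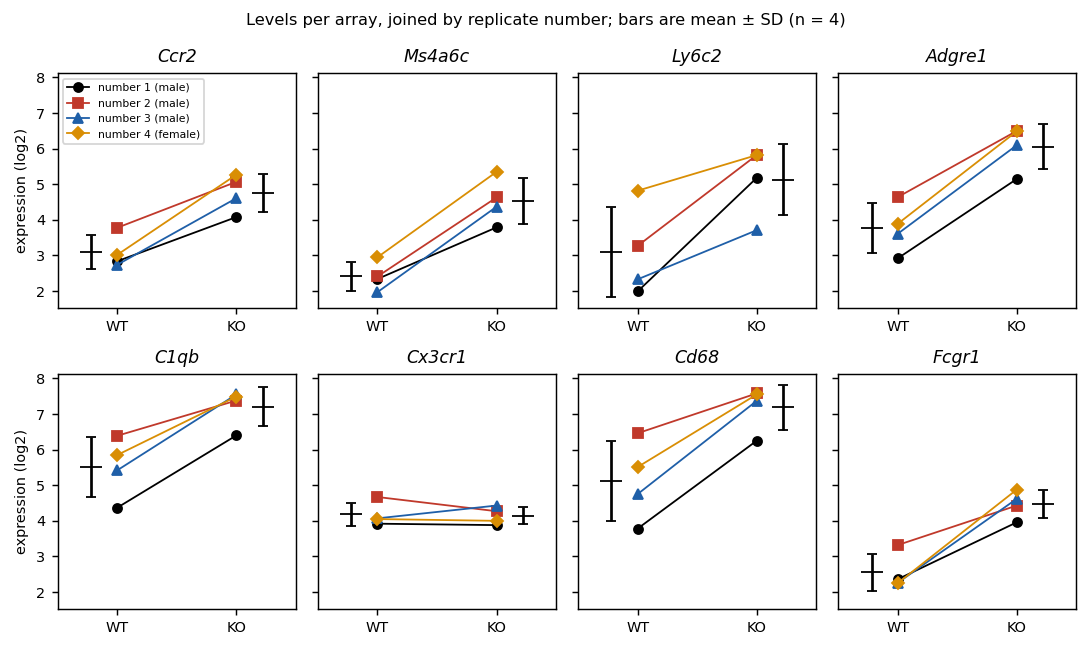
Log2 level per array of 8 markers in WT and KO, with lines joining arrays of the same replicate number and bars giving the mean ± SD (n = 4). All 4 lines climb for Ccr2, Ms4a6c, Ly6c2, Adgre1, C1qb, Cd68 and Fcgr1, while those of Cx3cr1 are nearly flat.

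The class shared by monocytes and macrophages holds 15 genes, of which 8 rose and 15 rose with the block. Its median level (4.13) lies in the range of 4 to 5, where 36.6% of all genes rose, and 41.4% with the block. Cd68, a lysosomal glycoprotein of phagocytes, read 3.78, 6.46, 4.75 and 5.51 in WT and 6.25, 7.58, 7.37 and 7.55 in KO. It rose by 2.06 ± 0.52 (4.18-fold, limma adjusted p = 0.022), with WT 2 just above KO 1, and lost the call without WT 3 (1.94), KO 2 (1.93), KO 3 (2.00) or KO 4 (1.94), after quantile normalization (1.69, limma adjusted p = 0.0902) and after cyclic loess (1.66, limma adjusted p = 0.0978). Ms4a6d, another MS4A protein, read 2.02, 2.96, 2.12 and 2.07 in WT and 3.23, 4.90, 4.29 and 5.65 in KO, with no overlap (2.22 ± 0.45, limma adjusted p = 0.00984). Mpeg1, the pore-forming perforin-2, read 3.65, 4.36, 2.91 and 4.85 in WT and 4.69, 6.32, 5.97 and 6.06 in KO. Its rise of 1.82 ± 0.45 (limma adjusted p = 0.0204) lost the call without KO 2 (1.63), KO 3 (1.75) or KO 4 (1.72), after quantile normalization (1.45, limma adjusted p = 0.0796) and after cyclic loess (1.44, limma adjusted p = 0.0764).

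Aif1, the actin-bundling protein IBA1, changed by much the same amount in each replicate number. It read 2.09, 1.86, 2.50 and 2.22 in WT and 2.80, 2.70, 3.29 and 3.06 in KO, with differences of 0.70, 0.84, 0.79 and 0.83 within numbers 1 to 4. The rise was 0.79 ± 0.18 (limma adjusted p = 0.0143). Lyz1, the lysozyme best known from Paneth cells of the gut, read 1.82, 1.78, 1.39 and 1.85 in WT and 2.18, 3.52, 3.60 and 2.95 in KO (1.36 ± 0.29, limma adjusted p = 0.0119). Of 6 Paneth and mucosal markers 0 rose and 2 fell (1 with the block), and their mean level was 1.90 to 2.32 in WT and 1.58 to 1.87 in KO. Their median difference was -0.38 at a median level of 2.01, beside -0.17 for all genes at a level of 2 to 3. Lyz2, the myeloid lysozyme and a close copy of Lyz1, ran from 6.71 to 8.79 in WT and from 8.10 to 9.49 in KO (1.25 ± 0.49, limma adjusted p = 0.0928, with the block 0.00885). Probes of the 2 lysozymes may catch each other's transcripts, so the Lyz1 value is uncertain.

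Csf1r, the receptor for the macrophage growth factors CSF1 and IL-34, read 3.73, 5.09, 4.76 and 5.13 in WT and 4.60, 6.55, 6.10 and 6.06 in KO. Only KO 1 lay within the WT range, and the difference of 1.15 ± 0.43 passed with the block (limma adjusted p = 0.0792, with the block 0.00328). Spi1 read 3.44, 4.30, 3.35 and 3.87 in WT and 3.60, 5.35, 4.28 and 4.85 in KO (0.78 ± 0.35, limma adjusted p = 0.131, with the block 0.0193). Within numbers 1 to 4 it differed by 0.16, 1.05, 0.93 and 0.98.

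Cybb, Cd84 and Ms4a7 also rose, and their values are given because of how their arrays lie. Cybb, the gp91phox subunit of the phagocyte NADPH oxidase, had the largest difference of the 46 members (2.33 ± 0.69, 5.01-fold, limma adjusted p = 0.0393). It ran from 3.42 to 5.97 in WT and from 5.56 to 8.0 in KO, and within numbers it differed by 2.14, 1.90, 2.79 and 2.48. The call was lost without WT 1 (1.92), WT 3 (2.00), KO 2 (2.03), KO 3 (2.50) or KO 4 (1.98). It was lost too after quantile normalization (1.97, limma adjusted p = 0.122), after cyclic loess (1.92, limma adjusted p = 0.127) and with trend and robust eBayes (limma adjusted p = 0.0632). Cd84, a SLAM-family receptor, rose by 2.03 ± 0.52 (limma adjusted p = 0.0245) and lost the call without WT 3 (1.90), KO 2 (1.64) or KO 4 (1.77), after quantile normalization (1.75, limma adjusted p = 0.0564) and after cyclic loess (1.70, limma adjusted p = 0.0669). Ms4a7, an MS4A protein of tissue macrophages, read 1.76 to 2.27 in WT and 3.49, 2.95, 5.79 and 3.63 in KO, with KO 3 the high array (1.95 ± 0.51, limma adjusted p = 0.0248). Its call was lost without WT 3 (1.92), WT 4 (1.98) or KO 4 (2.06). Among the rest, Ctss, the lysosomal protease cathepsin S, differed by 1.70, Itgax by 1.26, Laptm5 by 1.03 and Cd86 by 0.57, each passing with the block alone.

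Fc receptors bind the constant part of antibodies, and the activating ones signal through the adaptor Fcer1g. Of these 6 genes 3 rose, and 5 with the block. Their median level (3.95) lies in the range of 3 to 4, where 22.9% of all genes rose, and 26.7% with the block. Fcgr1, the high-affinity receptor CD64 of monocytes and macrophages, read 2.36, 3.32, 2.26 and 2.25 in WT and 3.96, 4.43, 4.62 and 4.88 in KO. All KO arrays lay above all WT arrays, and the rise of 1.92 ± 0.27 (limma adjusted p = 0.00276) was that of smallest adjusted p among the 46 members. Fcgr4, the activating receptor of Ly6C-low monocytes, macrophages and neutrophils, read 1.69, 1.96, 1.68 and 1.74 in WT and 2.54, 3.23, 2.89 and 3.48 in KO (1.27 ± 0.19, limma adjusted p = 0.0037). Its 4 WT arrays lay close together, and all KO arrays above them. Its WT mean of 1.77 lies below the median level of all genes in the WT arrays (2.46 to 2.66), and whether it is above background is unknown. Fcer1g, the ITAM-bearing chain, read 4.08, 6.69, 5.29 and 5.79 in WT and 6.47, 7.53, 7.22 and 8.11 in KO. It rose by 1.87 ± 0.51 (limma adjusted p = 0.0298), with the call lost without WT 3 (1.81), WT 4 (1.98), KO 2 (1.80), KO 3 (1.91) or KO 4 (1.61), after quantile normalization (1.51, limma adjusted p = 0.116) and after cyclic loess (1.47, limma adjusted p = 0.13).

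Tyrobp, the DAP12 adaptor through which TREM2 signals, read 3.00, 4.60, 3.37 and 4.20 in WT and 3.78, 5.26, 5.13 and 5.44 in KO (1.11 ± 0.42, limma adjusted p = 0.0856, with the block 0.00816). The inhibitory receptor Fcgr2b, which B cells also carry, differed by 1.67 ± 0.54 (limma adjusted p = 0.0533, with the block 0.00572). Fcgr3 differed by 0.67 ± 0.27 and passed in neither fit (limma adjusted p = 0.0974, with the block 0.0525).

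In the class of scavenger and lipid-associated genes, which macrophages loaded with debris express, 1 of 5 rose and 4 rose with the block. The median level of this class (4.08) lies in the range of 4 to 5. There 36.6% of all genes rose, and 41.4% with the block. Msr1, the class A scavenger receptor, read 3.15, 3.51, 2.56 and 2.84 in WT and 3.68, 6.06, 3.80 and 5.91 in KO. All KO arrays lay above all WT arrays, by little in KO 1 and KO 3. The rise was 1.85 ± 0.54 (limma adjusted p = 0.0372), and the call was lost without WT 2 (2.01), WT 3 (1.70), WT 4 (1.79), KO 2 (1.45) or KO 4 (1.50). It was lost too after quantile normalization (1.64, limma adjusted p = 0.0738) and cyclic loess (1.59, limma adjusted p = 0.088), where 0 of the 5 genes rose. Trem2, the lipid receptor of these macrophages, read 3.09, 3.90, 3.51 and 4.25 in WT and 3.76, 5.02, 4.68 and 4.45 in KO (0.79 ± 0.30, limma adjusted p = 0.0849, with the block 0.0215). Clec7a, the beta-glucan receptor Dectin-1, differed by 2.07 ± 0.67 (with the block, adjusted p = 0.00593) and Gpnmb by 1.23 ± 0.52 (with the block, adjusted p = 0.0103). Lgals3, the galectin-3 gene that many epithelia express too, differed by 0.67 ± 0.38 and passed in neither fit.

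The members varied together across the arrays. WT 1 was the lowest WT array for 33 members and KO 1 the lowest KO array for 40, and 28 members were lowest in both. KO 2 was the highest KO array for 19 members and KO 4 for 21, and in 35 members KO 2 and KO 4 both lay above KO 1 and KO 3. Within replicate numbers the median difference was 0.92 for number 1, 1.20 for number 2, 1.34 for number 3 and 1.56 for number 4, the female pair. KO was above WT in 45, 43, 41 and 45 of the 46 members in these numbers, and 38 members were higher in all 4 of them, against 24.8% of all genes. Without regard to numbers, all 4 KO arrays lay above all 4 WT arrays in 16 members, against 15.3% of all genes, and below them in 0, against 12.1%. The first share also depends on level. Of the 6991 genes with a mean of at least 4 in either genotype, 38.8% lay above in this way. They include 9 members, a smaller share of the members at that level.

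**Figure D4:**
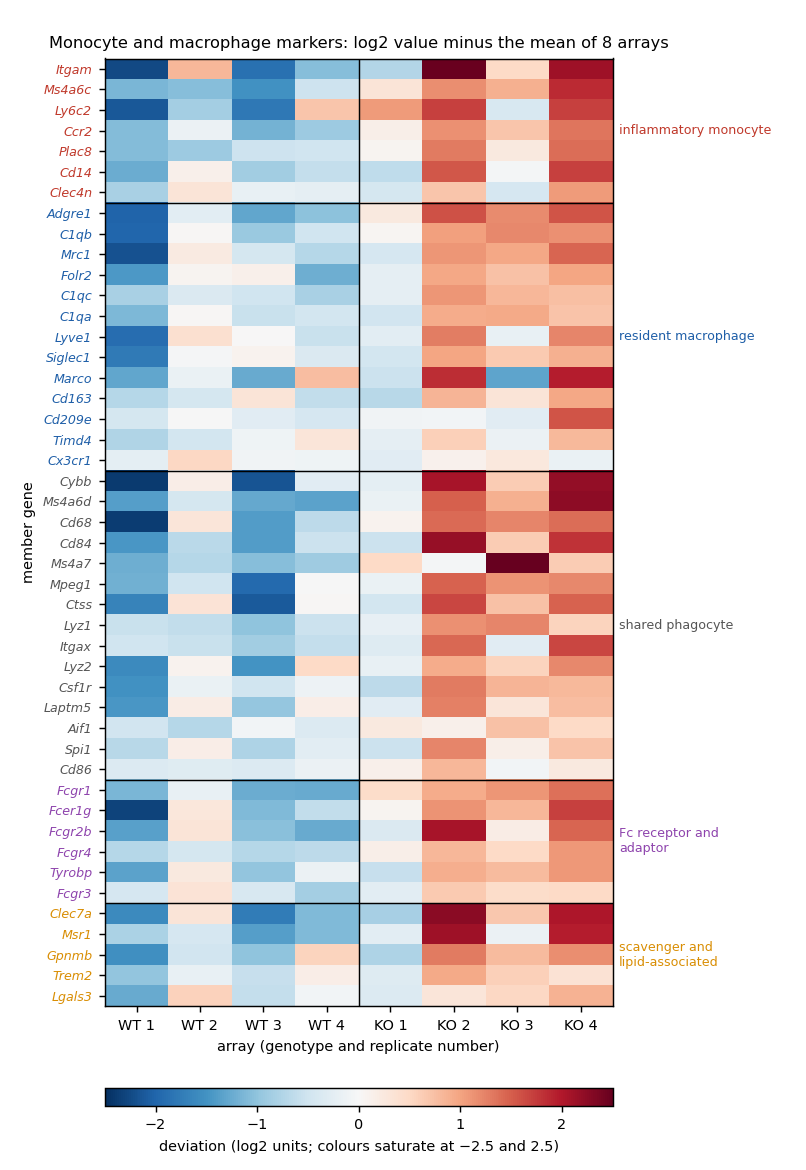
Log2 value of each marker minus its mean over the 8 arrays, with genes as rows grouped by class and arrays as columns; red is above and blue below the mean. KO 2 and KO 4 are the reddest columns and WT 1 the bluest, and KO 1 lies near or below the mean for most genes.

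Because KO 2 and KO 4 were the high arrays, the counts were repeated with KO 1 and KO 3 alone against the 4 WT arrays. The median member difference was then 0.84, and 4 members rose (4.05% of all genes): Ms4a6c (1.67), Ms4a7 (2.63), Fcgr1 (1.74) and Fcgr4 (0.95). Within numbers 1 and 3, fitted with the block, the median was 1.11. Among males only, with 3 arrays per genotype, 3 members rose (3.47% of all genes), Ms4a6c (2.03), Fcgr1 (1.69) and Fcgr4 (1.11), and the median stayed at 1.27. Without KO 1, 35 members rose (12.2% of all genes). Without KO 2 the count was 12 (11.1% of all genes) and without KO 4 it was 10 (8.03%).

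Other cell types moved with some of the same arrays. The mean level of 13 neutrophil markers was 1.98 to 2.36 in WT, 1.84 in KO 1, 1.79 in KO 3, 3.27 in KO 2 and 3.08 in KO 4. S100a8 and S100a9, the calprotectin subunits that fill neutrophils, read 3.70 and 4.16 in KO 2 and 3.70 and 4.31 in KO 4, but 1.31 and 1.05 in KO 1 and 1.48 and 0.94 in KO 3. In WT arrays S100a8 read 1.62 to 2.04 and S100a9 1.44 to 2.97. Of the 13 neutrophil markers 0 rose or fell, and Ly6g (1.77 to 1.88 in KO, 1.68 to 2.38 in WT) was not higher in KO 2 or KO 4. Mpo (2.34 and 1.61) and Camp (1.16 and 1.11) in these arrays were also below their highest WT values (2.51 and 2.01). Members that neutrophils also express, such as Itgam, Cd14, Clec4n and Fcgr4, include genes high in KO 2 and KO 4; the part of neutrophils in their values was not tested.

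B cell markers stood out in other arrays: Ms4a1 (CD20) read 4.61 in KO 2, 3.50 in WT 4 and 2.38 in KO 4, against 1.23 to 1.37 in the other arrays. Of 6 B cell markers 0 rose or fell. T and NK markers had a mean level of 1.92 to 2.75 in WT and 1.94 to 2.19 in KO, with 0 of 11 rising and 1 falling, Nkg7 (-0.57 ± 0.15, limma adjusted p = 0.025). Of 9 dendritic cell markers 0 rose or fell and all 9 differences were below 0, including Flt3 (-0.23) and Cd209a (-1.03, limma adjusted p = 0.0679). The dendritic and the T and NK lists had median levels of 2.24 and 2.19 and median differences of -0.25 and -0.27. All genes at a level of 2 to 3 had a median difference of -0.17. Of 7 markers of all leukocytes 0 rose, though 6 rose with the block. Their median level was 4.56, and 41.4% of all genes at a level of 4 to 5 rose with the block. Ptprc (CD45) read 2.51, 4.63, 3.17 and 5.93 in WT and 4.63, 6.94, 5.41 and 6.50 in KO (1.81 ± 0.73, limma adjusted p = 0.0989, with the block 0.00558). Fibroblast and stellate markers had mean levels of 4.65 to 5.94 in WT and 5.01 to 7.05 in KO, highest in KO 2. Of these 8 markers 0 rose without the block and 5 with it, while 45.3% of all genes at a level of 5 to 6 rose with it.

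**Figure D5:**
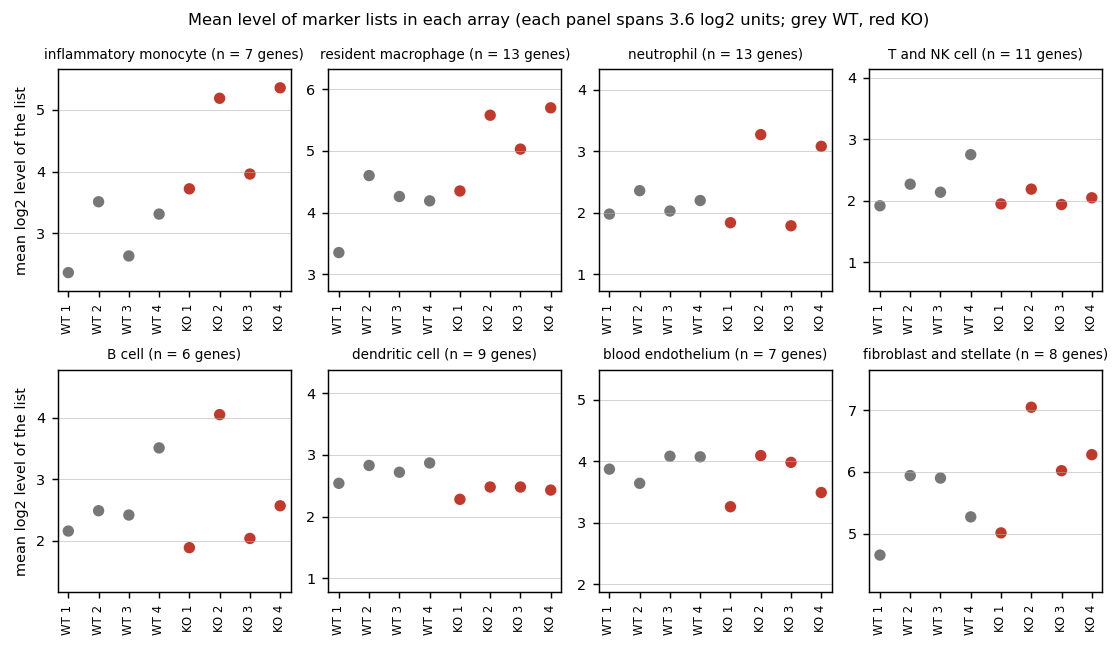
Mean log2 level of 8 marker lists in each array (grey WT, red KO), each panel spanning the same range of log2 units around its own middle. All KO arrays lie above all WT arrays for the monocyte list, KO 1 (4.35) lies within the WT range for the resident list, the neutrophil list is high in KO 2 (3.27) and KO 4 (3.08) alone, and the B cell list is high in KO 2 (4.05) and WT 4 (3.51).

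The pathways around these markers were looked at through lists of other genes, to be read against the 14.6% of all genes that rose and 6.99% that fell, or 16.7% and 6.08% with the block. Among growth factors and their receptors, 2 of 10 rose (5 with the block) and 0 fell: Csf2ra, the GM-CSF receptor (1.46 ± 0.36, limma adjusted p = 0.02), and the interferon-gamma receptor Ifngr1 (0.94 ± 0.27, limma adjusted p = 0.0332). The CSF1R ligands Csf1 (0.55 ± 0.30, limma adjusted p = 0.195, with the block 0.024) and Il34 (0.01 ± 0.16, limma adjusted p = 0.966) did not pass. Of 13 chemokines that attract monocytes, 2 rose and 1 fell, shares close to those of all genes, and with the block 5 rose and 0 fell. Those that rose were Ccl8 (1.75 ± 0.46, limma adjusted p = 0.0253) and Cxcl16 (1.13 ± 0.26, limma adjusted p = 0.0151), and the one that fell was Cx3cl1, given above. Ccl2, the ligand of CCR2, read 2.61, 3.85, 2.46 and 2.97 in WT and 3.68, 4.59, 2.50 and 5.76 in KO. KO 4 was the high array and KO 3 lay among the WT values, and the difference of 1.16 ± 0.60 did not pass (limma adjusted p = 0.176, with the block 0.0625).

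Of 14 measured myeloid transcription factors, 2 rose and 0 fell, and 7 rose with the block. Those that rose without it were Maf (1.05 ± 0.33, limma adjusted p = 0.0481), a factor of mature macrophages, and Bhlhe41 (0.51 ± 0.16, limma adjusted p = 0.0444). Of 15 genes of ITAM and integrin signalling, which acts downstream of Fcer1g and Tyrobp, 4 rose and 0 fell, and 10 rose with the block. Nckap1l, the haematopoietic subunit of the WAVE actin complex, rose by 1.86 ± 0.40 (limma adjusted p = 0.0121), the phosphatase Ptpn6 by 0.99 ± 0.28 (limma adjusted p = 0.0349), and the kinase Btk by 1.14 ± 0.33 (limma adjusted p = 0.0354). Syk itself did not pass (0.83 ± 0.45, limma adjusted p = 0.191). Of the 3 partners of Cybb measured here (Cyba, Ncf1 and Ncf4), 0 rose and 2 rose with the block. Of 5 complement receptors, a list that includes the members Itgam and Itgax, 1 rose, the anaphylatoxin receptor C3ar1 (1.77 ± 0.37, limma adjusted p = 0.0111), and 3 rose with the block.

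Among 15 effector genes 4 rose and 1 fell, and with the block 6 rose and 0 fell. Slc40a1, the iron exporter ferroportin, read 2.17 to 2.54 in WT and 3.45 to 3.92 in KO (1.20 ± 0.14, limma adjusted p = 0.00194). Hmox1, haem oxygenase, which many stressed cell types induce, rose by 2.18 ± 0.40 (limma adjusted p = 0.00698). Pf4, a chemokine of platelets and macrophages, rose by 1.34 ± 0.27 (limma adjusted p = 0.0106), and Tgfb1 by 1.59 ± 0.36 (limma adjusted p = 0.0155). Selenop, the selenium carrier, fell by 0.43 on the log2 scale (SE 0.13, limma adjusted p = 0.0365, with the block 0.0503). The cytokine Tnf passed with the block alone (1.04 ± 0.49, limma adjusted p = 0.145, with the block 0.0428). Il1b (1.70 ± 0.92, limma adjusted p = 0.192) and Il6 (0.03 ± 0.14, limma adjusted p = 0.877) passed in neither fit, and Il1b was high in KO 2 (5.53) and KO 4 (5.83) but not in KO 1 (2.03) or KO 3 (1.77). Chil3 and Arg1, genes of alternatively activated macrophages that neutrophils or injured epithelium can also express, varied widely in both genotypes. Chil3 read 1.57, 5.79, 0.91 and 1.25 in WT and 3.21, 7.52, 7.0 and 6.48 in KO (limma adjusted p = 0.0508, with the block 0.012), so WT 2 lay within the KO range. Of 8 antigen presentation genes 0 rose without the block and 2 with it.

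Lmna read 2.54 to 3.13 in WT and 2.33 to 2.73 in KO (-0.24 ± 0.15, limma adjusted p = 0.264) and did not pass. Where its probes sit relative to the deleted exons is unknown, so this value does not test the genotype labels. The acinar identity of the tissue was plain in every array, with Cpa1, the acinar carboxypeptidase A1, between 11.97 and 12.37. Of 8 acinar markers 0 rose and 3 fell. These were the acinar factors Bhlha15 (-1.42 ± 0.12, limma adjusted p = 0.00057) and Rbpjl (-1.60 ± 0.17, limma adjusted p = 0.00126), and Prss2 (-0.89 ± 0.14, limma adjusted p = 0.0039). The acinar factor Ptf1a did not pass (0.03 ± 0.31, limma adjusted p = 0.957).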

How the data were processed

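Expression was measured on 8 whole-transcript arrays. The authors deposited log2 values; RMA, oligo and limma are named, without their roles, per the submitters' processing notes. RMA as usually run includes background correction, quantile normalization and a summary over probes. The log base is read from the range (0.04 to 12.47). The sources used here give neither background signal nor scan batch. Of 41345 rows, 23521 had 1 gene symbol in the platform annotation (0 symbols changed through the RefSeq table of GRCm38.p6), and 1814 with several and 16010 with none were left out. The row of highest mean was kept per gene (22180 genes); all columns were mapped to samples.

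KO was compared with WT in limma 3.58.1 (R 4.3.3, lmFit and eBayes) on all 8 arrays, with Benjamini-Hochberg adjustment over all genes at 0.05. The steps were tested on simulated data. Pairing was checked by how WT and KO arrays of 1 number left their genotype means together: across genes r was 0.26, 0.17, 0.11 and 0.14 for numbers 1 to 4. As each exceeds 0.1, the number is treated as a pair, though WT 3 and KO 1 (0.11) and WT 4 and KO 2 (0.12) also did and the labels name no shared litter. Number 4 holds the female of each genotype, so sex and pairing cannot be told apart in its correlation (0.14). Array number limits the precision.

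The members, their 5 classes and all lists were chosen with earlier results of these data known. Named genes were, per class, up to 4 called members of smallest adjusted p and class-defining genes, and up to 3 called genes per other list. The other members, and Syk, Tgfb1, Selenop, Il1b, Tnf, Il6, Chil3, Arg1, Ly6g, Mpo, Camp, Ms4a1, Flt3, Cd209a, Cpa1, Ptf1a and the NADPH oxidase partners, were picked after their values were seen. Lists not described in the results (mast cell, eosinophil, beta cell, lymphatic and blood endothelium) had 0 calls in 6, 5, 5, 4 and 7 genes, except that Pdx1 fell (-0.72). Alternatives were the replicate block, sex, males only, 3 normalizations, eBayes settings, a filter, mean of rows and each array left out. The filter kept genes whose mean was at least 4 in either genotype, so a gene could pass through KO alone. KO 1 and KO 3 alone, numbers 1 and 3 with the block, and the block after quantile normalization were chosen after seeing the data.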

Additional observations from a re-analysis of the deposited data

Results flagged for a closer look

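In groups of 4 arrays, a sample was singled out when its gap to the nearest other exceeded the 95% critical value of Dixon's test. Chance flags about 1 in 20 groups, and 92 groups were looked at here. KO 1 was the array set apart among the KO values of C1qa (4.65), C1qb (6.40) and Cd68 (6.25), below the other KO arrays in each. KO 4 was set apart for Cd209e (3.27), above the others. In WT, WT 2 was set apart upwards for Ms4a6d (2.96) and Fcgr1 (3.32), and WT 3 downwards for Lyz1 (1.39).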

How the results depend on the processing

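Of the 19 members that rose, 10 stayed past the threshold without each array in turn (Ms4a6c, Ccr2, Plac8, Adgre1, C1qc, Ms4a6d, Aif1, Lyz1, Fcgr1 and Fcgr4), and 0 members fell in any alternative run, with 0 lower at an unadjusted p under 0.05 as well. The number that rose was 39 with the replicate block (16.7% of all genes) and 3 among males only (3.47%). It was 12 after cyclic loess (6.86%) and 12 after a repeated quantile normalization (5.54%). After median centring it was 29 (19.8%), and with KO 1 and KO 3 only it was 4 (4.05%). With the block it was 31 after quantile normalization (7.34%) and 31 within numbers 1 and 3 (6.04%). Without single arrays it ran from 10 without KO 4 (8.03% of all genes) to 35 without KO 1 (12.2%). Monocyte markers that rose numbered 1 among males only and with KO 1 and KO 3 only. Resident markers numbered 9 with the block and 7 with the block in numbers 1 and 3. They numbered 6 after median centring, with array weights (16.9% of all genes) and with the filter at a level of 4 (42.4% of the 6991 genes it keeps). With trend and robust eBayes they numbered 5 (13.9% of all genes). They numbered 0 among males only and with KO 1 and KO 3 only, and 2 to 8 without single arrays. Members whose genotypes did not overlap numbered 10 after quantile normalization, with or without the block (8.37% of all genes). They numbered 10 after cyclic loess too (9.6% of all genes). With the filter, which drops dim genes and some of the members, they numbered 9, against 38.8% of the 6991 genes it keeps. Their share of the members kept was below that of all genes kept. They numbered 37 within numbers 1 and 3 (26.9% of all genes, with 2 arrays per genotype). Without single arrays the lowest count was 16, without WT 1, WT 3, KO 2 or KO 4 (16.2% to 19.5% of all genes). The highest was 33, without KO 1 (18.2% of all genes). The median member difference was 1.60 with the filter, 0.84 with KO 1 and KO 3 only and 1.11 to 1.61 without single arrays. Members low in WT, such as Ccr2 (mean 3.1 in WT, 4.75 in KO), pass the filter through KO alone. The median and the counts with the filter thus depend partly on that choice of genes. Within number 2 the median went from 1.20 to 0.85 after quantile normalization. Clec4n (-0.20) and Marco (-0.44) turned with KO 1 and KO 3 only, and Cx3cr1 turned after median centring (0.11), with array weights (0.01), within numbers 1 and 3 (0.16) and without WT 2 (0.13), KO 1 (0.06) or KO 4 (0.02), its range without single arrays being -0.12 to 0.13. Over all genes, higher calls numbered 770 among males only, 1228 after quantile normalization (1629 with the block), 1521 after cyclic loess, 898 with KO 1 and KO 3 only, 1339 within numbers 1 and 3 and 1781 to 3713 without single arrays. Lower calls numbered 145 among males only, 615 after median centring, 333 with the filter, 111 with KO 1 and KO 3 only, 305 within numbers 1 and 3 and 459 to 2357 without single arrays. Fewer arrays enter the smaller sets; otherwise the cause was not tested. Without a measured background, the limit for dim members is unknown. Among the members that rose, WT means lay below the WT array medians (2.46 to 2.66) for Lyz1 (1.71), Fcgr4 (1.77), Ms4a7 (2.02), Aif1 (2.17), Ms4a6d (2.29), Plac8 (2.33) and Ms4a6c (2.42).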
